A study of Homo sapiens with 6 samples.

Results

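TXNIP, the alpha-arrestin genes ARRDC1, ARRDC2, ARRDC3 and ARRDC4, and the Mondo factor genes MLXIP and MLXIPL with their shared partner MLX are 8 of the 24960 genes in the count table. They were picked by name as 1 family and its glucose-sensing regulators, around TXNIP, which was selected on its large difference between the control and hyperoside groups. Every value of these genes from that comparison is therefore a description and carries no p. The RNA came from K562 cells, an established erythroid-like line of chronic myeloid leukemia that carries the BCR::ABL fusion. The control group had 3 libraries and the hyperoside group had 3 libraries, and all came from this single cell line. Per the study's text, the hyperoside group received 2 mM of this plant flavonol glycoside, while the time before RNA extraction and the addition made to the control cells were not given in the sources used here. The labels do not say whether replicates were separate cultures, so the spread between them may be technical.

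Alpha-arrestins are adaptor proteins with the arrestin fold. They carry short proline-rich motifs that recruit ubiquitin ligases of the NEDD4 family to membrane proteins, which are then internalized or sorted. TXNIP also binds thioredoxin and limits glucose uptake, in part by removing the glucose transporter GLUT1 from the cell surface. MondoA, encoded by MLXIP, and ChREBP, encoded by MLXIPL, form dimers with MLX and bind DNA at pairs of E-box-like elements when glucose 6-phosphate is abundant, and TXNIP and ARRDC4 are the best known targets of MondoA. ARRDC1 is known for the budding of vesicles at the plasma membrane and ARRDC3 for the turnover of beta-adrenergic receptors and of integrin beta-4.

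Since TXNIP and ARRDC4 are known as MondoA targets, the 250 bases before the RefSeq start of each are given here to show the E-box-like letters they hold. The TXNIP window lies at chr1:145996580-145996829 and the ARRDC4 window at chr15:97960453-97960702 of GRCh38.p14, on the minus and the plus strand. Capitals mark the E-box CACGTG, its variant with the letters CACGAG, and the box CCAAT, which reads ATTGG where it lies on the other strand, each searched on both strands.
TXNIP: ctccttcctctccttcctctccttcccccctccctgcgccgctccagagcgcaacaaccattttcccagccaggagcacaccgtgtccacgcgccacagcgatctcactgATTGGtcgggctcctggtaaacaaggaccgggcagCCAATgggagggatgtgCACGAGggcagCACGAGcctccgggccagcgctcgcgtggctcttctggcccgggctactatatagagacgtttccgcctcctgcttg
ARRDC4: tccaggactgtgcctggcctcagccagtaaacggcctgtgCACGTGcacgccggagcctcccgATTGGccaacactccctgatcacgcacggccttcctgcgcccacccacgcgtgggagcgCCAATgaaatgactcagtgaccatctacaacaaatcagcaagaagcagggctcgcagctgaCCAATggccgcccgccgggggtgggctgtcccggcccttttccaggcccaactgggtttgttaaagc

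The TXNIP window held 2 copies of CACGAG, at -88 to -83 and -77 to -72 from the start, which together match the spaced pair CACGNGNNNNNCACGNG. In this pair N is any base, so its elements can be either hexamer or other letters. The pair occurred in 16 of 35116 promoter windows of the same length (0.0456%). CACGAG alone occurred in 5.58% of all windows. The ARRDC4 window held 1 CACGTG, at -210 to -205, and the MLX window held another at -50 to -45, against 6.34% of all windows with this hexamer. CCAAT occurred 2 times in the TXNIP window and 3 times in that of ARRDC4, against at least 1 copy in 32% of windows. It was not particular to these genes, as it also occurred in a window of ARRDC1, ARRDC2, ARRDC3, MLXIP and MLX. Only MLXIPL had no copy. RefSeq listed 11 windows for the 8 genes, and no window of ARRDC1, ARRDC2, ARRDC3, MLXIP or MLXIPL held either hexamer. The second TXNIP window, further inside the gene, held none of the motifs. A match to these letters is a description of the window and not a binding site.

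The 6 libraries had 35613283 to 36754725 counts on genes, and 15095 genes passed the filter on low counts, all 8 of these among them. Between replicates, chi-square per degree of freedom over genes was 6.34 to 23.1, so no library repeated another. Control replicate 1 stood apart, at 20.3 and 23.1 from the other controls, which were at 6.34 from each other, and results that turn on it are given without it. The 8 erythroid markers were detected in every library, with a summed level of 4720 to 6110 CPM (counts scaled to a common library size after normalization) in control libraries and 3390 to 4050 CPM in hyperoside libraries, with the globins HBG1, HBG2 and HBE1 lower and KLF1 and EPOR higher in mean FPKM. The label for the tissue is bone. Of 7 bone cell markers, SP7, ALPL and BGLAP had 0 to 7 counts in any library, while COL1A1 had 47 to 111, COL1A2 72 to 138, CTSK 69 to 135 and ACP5 139 to 636. The 7 markers, 4 of them tested, summed to 11.9 to 12.7 CPM in the control libraries and 18.9 to 25.1 CPM in the hyperoside libraries. Mean FPKM was higher in the hyperoside group for ACP5 (2.20 and 7.10), CTSK (1.32 and 2.12) and COL1A2 (0.522 and 0.613). It was lower for COL1A1 (0.458 and 0.239). The 5 lymphocyte markers summed to 32.2 to 38.7 and 41.0 to 45.9 CPM. The B cell marker MS4A1 had 0 or 1 count and the T cell marker CD3E 2 to 27, whereas CD3D had 1011 to 1559 counts in every library. The part of these markers in the results was not tested. In bulk RNA, fewer cells of a type and less RNA per cell cannot be told apart.

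In the control group the levels per transcript length, as FPKM (fragments per kilobase, scaled to library size), ran from 45.2 for TXNIP to 1.71 for MLXIPL. Between them stood MLX at 28.5, ARRDC3 at 22.4, MLXIP at 13.6, ARRDC2 at 7.58, ARRDC1 at 3.68 and ARRDC4 at 3.61. Only ARRDC1 and ARRDC4 had overlapping libraries among neighbours in this order. In the hyperoside group TXNIP remained first at 185.7 FPKM and MLXIPL last at 0.887. ARRDC3, at 45.6, stood above MLX, at 30.9, and ARRDC4, at 4.81, stood above ARRDC1, at 3.66, with no neighbours overlapping. The order of MLX and ARRDC3 thus differed between the groups. ARRDC1 and ARRDC4 had no clear order in the control group, so no change of order is read for them.

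**Figure D1:**
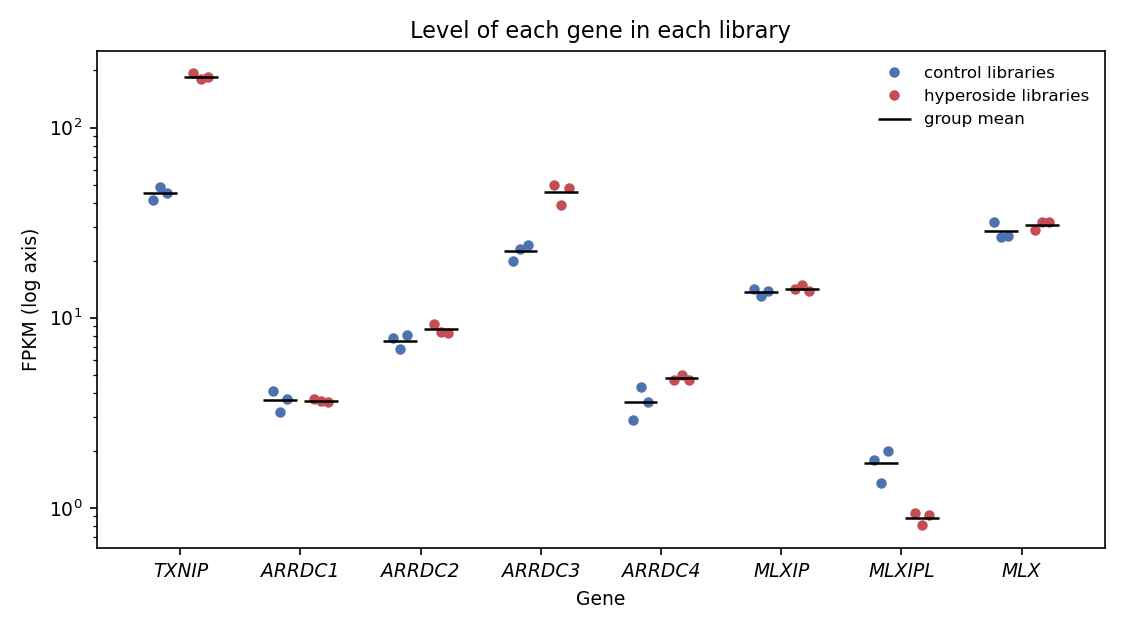
FPKM of each gene on a log axis, with 1 point for each of the 3 control and 3 hyperoside libraries and a line at the group mean. TXNIP and ARRDC3 sit higher and MLXIPL lower in all 3 hyperoside libraries, while the points of ARRDC1, MLXIP and MLX overlap.

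TXNIP had 5025, 5753 and 5325 counts in control replicates 1, 2 and 3, and 22834, 21474 and 21760 in hyperoside replicates 1, 2 and 3. In normalized counts this was 142.9, 163.4 and 149.0 CPM in the control libraries and 622.1, 584.7 and 602.5 CPM in the hyperoside libraries. Every hyperoside library was far above every control library. The coefficient of variation was 6.94% in control libraries and 3.10% in hyperoside libraries. The medians of the 356 genes within 0.5 log2 units of its mean over all 6 libraries were 5.92% and 4.31%. That mean lies between the group means, so these genes match the level of TXNIP in neither group. The means were 151.8 ± 10.5 CPM and 603.1 ± 18.7 CPM (mean ± SD, n = 3), a log2 fold change of 1.99 with a standard error of 0.07, or 3.97-fold. By FPKM, TXNIP ranked between 1236 and 1518 among all genes of a control library and between 244 and 266 among those of a hyperoside library. Its log2 fold change was higher than that of 98.5% of the tested genes, at rank 223 from the top. The gene lies on chromosome 1 from 145992435 to 145996579 (GRCh38.p14, minus strand), and no exon of another gene overlaps its exons in GENCODE 29.

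ARRDC3 had 101.5, 114.3 and 117.9 CPM in control replicates 1, 2 and 3, and 238.4, 187.5 and 232.5 CPM in hyperoside replicates 1, 2 and 3. The groups were well apart, and the lowest hyperoside library was replicate 2. The means were 111.3 ± 8.62 and 219.5 ± 27.8 CPM (mean ± SD, n = 3), which gave a log2 fold change of 0.98 with a standard error of 0.09, or 1.97-fold. Its spread in the hyperoside group was a coefficient of variation of 12.7%. The median of the 1076 genes within 0.5 log2 units of its mean over all 6 libraries was narrower, at 4.49%. Of its exonic bases 2.94% overlap the gene ARRDC3-AS1 on the opposite strand, and the use of strand in counting was not given in the sources used here. ARRDC3-AS1 itself had 17, 17 and 54 counts in the control libraries and 62, 84 and 67 in the hyperoside libraries, and its log2 fold change was 1.23 ± 0.43 (SE) at an adjusted p of 0.025 in the quasi-likelihood test of edgeR. ARRDC3 had 3570 to 8749 counts in the same libraries.

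ARRDC4, known to respond to glucose as TXNIP does, had 12.3, 17.9 and 14.6 CPM in control replicates 1, 2 and 3, and 18.7, 20.04 and 19.0 CPM in hyperoside replicates 1, 2 and 3. The groups did not overlap, but the gap between control replicate 2 and hyperoside replicate 1 was small beside the range of the control group. The means were 14.9 ± 2.82 and 19.2 ± 0.72 CPM (mean ± SD, n = 3), which gave a log2 fold change of 0.37 with a standard error of 0.13. The coefficient of variation was 18.9% in the control group, against a median of 9.63% for the 1876 genes of like level, and 3.74% in the hyperoside group. ARRDC4 passed the threshold of an adjusted p under 0.05 used for all genes, but not in 5 of the 6 fits with 1 library left out. Leaving out control replicate 2 gave 0.52 and kept the call. The log2 fold change was 0.25 without control replicate 1, 0.35 without control replicate 3, and 0.39, 0.34 and 0.39 without hyperoside replicates 1, 2 and 3.

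ARRDC2 had 24.1, 20.4 and 23.8 CPM in the control libraries and 26.7, 24.5 and 24.4 CPM in the hyperoside libraries. Its groups lay side by side without overlap, and the log2 fold change of 0.15 with a standard error of 0.10 did not pass the threshold. ARRDC1 had 19.6, 14.7 and 16.9 CPM in the control libraries and 16.6, 16.3 and 16.3 CPM in the hyperoside libraries. The hyperoside values fell inside the control range, and the log2 fold change was -0.06 with a standard error of 0.12. Without control replicate 1 it was 0.05, so its sign changed. ARRDC1-AS1, which shares 29 exonic bases with ARRDC1 on the opposite strand, fell from 34.3 ± 3.66 to 21.9 ± 1.70 CPM (mean ± SD, n = 3), with an adjusted p of 7.39e-05 from edgeR. Per length it was more abundant than ARRDC1 in every library, at 13.7 to 23.1 FPKM. In GENCODE 29, 9.53% of the exonic bases of ARRDC2 overlap AC020904.3 on the opposite strand, and 4.79% of those of ARRDC1 overlap AL590627.2 on the same strand, where reads could have been mixed.

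Summed over the 5 alpha-arrestin genes among the members, the level was 76.1, 86.4 and 84.9 FPKM in the control libraries and 260.7, 236.2 and 248.6 FPKM in the hyperoside libraries. ARRDC5 was not found in the count table, so it is not part of this sum. TXNIP made up 54.8% ± 1.67 of this sum in control libraries and 74.8% ± 1.28 in hyperoside libraries (mean ± SD, n = 3). The share of ARRDC3 was 27.1% ± 1.23 and 18.3% ± 1.56, although its own level was higher in the hyperoside group. ARRDC1, ARRDC2 and ARRDC4 together held 18.1% ± 1.45 and 6.91% ± 0.29. Without TXNIP the sum was 37.3 ± 2.49 FPKM in control libraries and 62.8 ± 5.98 FPKM in hyperoside libraries (mean ± SD, n = 3). The ratio of TXNIP to ARRDC4, both targets of MondoA, was 11.3 to 14.3 in the control libraries and 35.9 to 41.0 in the hyperoside libraries, a description that follows the difference on which TXNIP was selected.

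**Figure D2:**
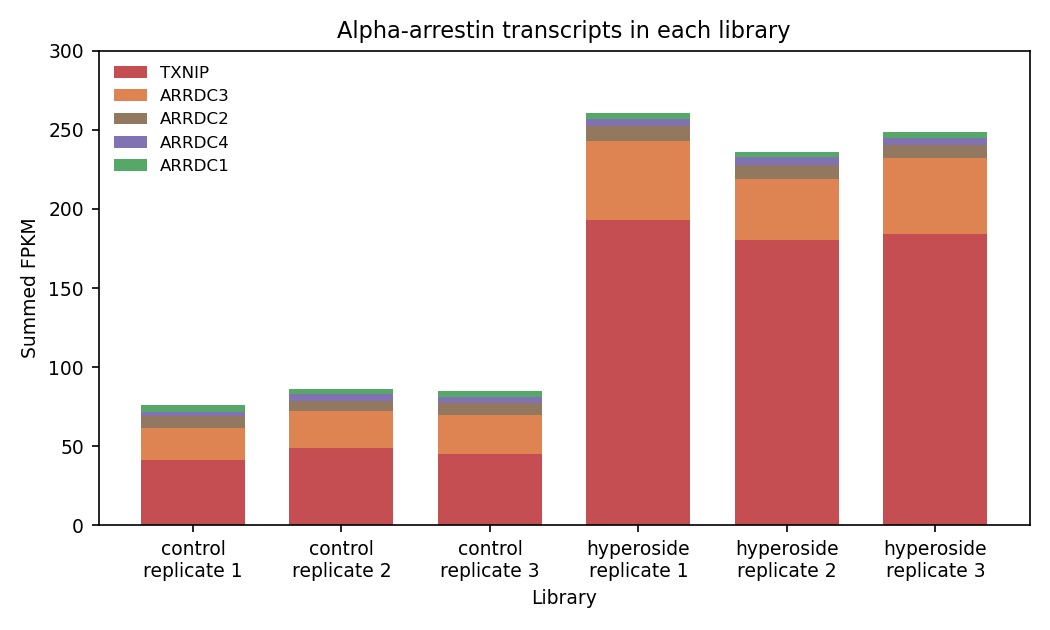
Summed FPKM of the 5 alpha-arrestin genes in each library, with 1 coloured segment per gene and bars starting at 0. The bars reach 76.1 to 86.4 in control libraries and 236.2 to 260.7 in hyperoside libraries, and TXNIP is the tallest segment of every bar.

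MLXIP, the gene of MondoA, had 128.5, 113.8 and 119.1 CPM in the control libraries and 119.8, 126.9 and 118.3 CPM in the hyperoside libraries. The ranges overlapped, and the log2 fold change was 0.01 with a standard error of 0.07, with its sign changed without control replicate 2, at -0.03, or hyperoside replicate 2, at -0.02. MLXIP had 4007 to 4662 counts in every library. MLX had 83.6, 68.1 and 67.9 CPM in the control libraries and 71.4, 78.8 and 79.9 CPM in the hyperoside libraries, with control replicate 1 the highest of all 6. Its log2 fold change was 0.07 with a standard error of 0.09. Without control replicate 1 it was 0.18 and passed the threshold narrowly, the only 1 of the 13 alternative fits in which MLX was called. In GENCODE 29, 18.1% of the exonic bases of MLX overlap PSMC3IP on the opposite strand, and reads of these genes could have been mixed there.

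MLXIPL, the gene of ChREBP, was the least abundant of the 8, with 268, 197 and 288 counts in the control libraries and 137, 119 and 133 in the hyperoside libraries. This was 7.62, 5.60 and 8.06 CPM against 3.73, 3.24 and 3.68 CPM. All hyperoside libraries were below all control libraries, of which replicate 2 was the lowest. The means were 7.09 ± 1.32 and 3.55 ± 0.27 CPM (mean ± SD, n = 3), or 50.1% of the control mean, and the log2 fold change was -0.997 with a standard error of 0.19. The ratio of MLXIP to MLXIPL in FPKM was 6.93 to 9.54 in the control libraries and 15.1 to 18.4 in the hyperoside libraries. The ratio of MLX to MLXIP was 1.96 to 2.24 and 2.05 to 2.33, with overlapping ranges.

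At an adjusted p under 0.05, 3 of the 8 genes were called higher (TXNIP, ARRDC3 and ARRDC4) and 1 was called lower (MLXIPL), and 4 were not called. Among all tested genes 22.1% were called higher and 23.2% lower. With a fold change above 2 as well, the definition of a DEG in the study's methods, only TXNIP was called, against 6.43% of all genes higher and 3.76% lower. ARRDC3, at 1.97-fold, and MLXIPL, at 50.1% of the control mean, lay just short of that threshold, and each passed it in 3 of 13 alternative fits. By normalized counts, 5 of the 8 genes had no overlap between groups, against 54.4% of all tested genes. Their median difference on the log2 scale was 0.11, beside 0.00 for all tested genes. Since TXNIP was chosen for this comparison, nothing is read from these shares.

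**Figure D3:**
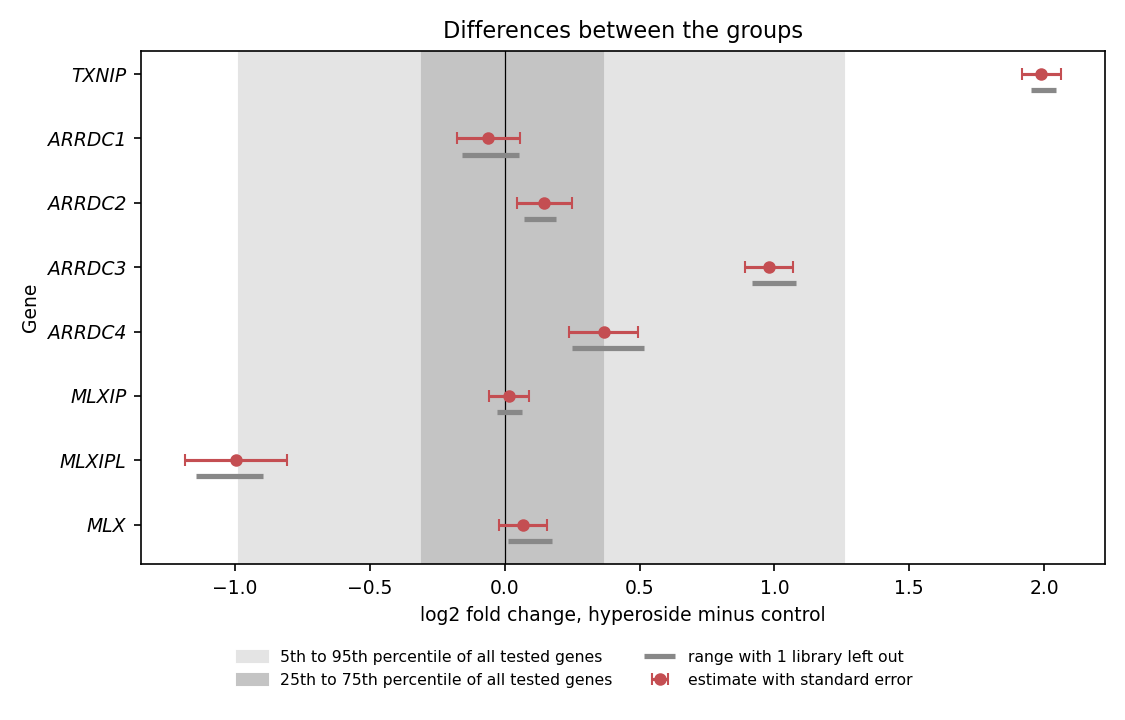
Log2 fold change of each gene (hyperoside minus control) with its standard error, and below it the range over the 6 fits that leave out 1 library. The bands hold the middle of all 15095 tested genes. TXNIP lies to the right of both, at 1.99. MLXIPL, at -0.997, lies just left of the wider band, whose edge is at -0.987.

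By the root mean square distance between levels over the 6 libraries, each as log2 CPM centred on its gene's mean, the 5 genes most like TXNIP among 9294 genes with a mean of at least 10 CPM were APOBR, PLXNA2, F8, IGFL2-AS1 and TRANK1. Their distances were 0.06 to 0.09, and their log2 fold changes were 1.93, 1.99, 1.86, 1.83 and 2.17. APOBR, which encodes a receptor for apolipoprotein B, had a mean of 23.4 CPM in control libraries and 88.8 CPM in hyperoside libraries. The 2 genes most like ARRDC4 were KYNU, the gene of kynureninase, at a distance of 0.05, and PKIB, the gene of an inhibitor of protein kinase A, at 0.07. With 2 groups of 3 libraries this measure mostly orders genes by their difference between the groups, and the 3 libraries of a group share that difference.

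Of the 16 windows with the spaced pair of CACGNG, each belonged to a different gene, and 13 of these genes were tested. TXNIP, which was selected on its difference, and MYL5 were called higher, 5 were called lower and 6 were not called, beside 22.1% higher and 23.2% lower among all tested genes. MYL5, a myosin light chain gene, was at 1.03 on the log2 scale (SE 0.20, edgeR adjusted p of 4.12e-04). Those called lower were GFPT1, which encodes the first enzyme of the hexosamine pathway, at -1.44, RCN3 at -1.20, TIGD1 at -0.65, HPF1 at -0.64 and RAN at -0.25. Nothing particular to the pair is read from these counts.

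The genes in the lists that follow surround these members in the pathway. The lists were drawn up from known roles, with earlier results of these data known. For each list, the counts of calls stand beside the 22.1% called higher and 23.2% called lower of all genes.

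In the thioredoxin system, whose central protein is bound by TXNIP, 10 of 13 tested genes fell and 1 rose, with a median log2 fold change of -0.34. With 1 library left out, 8 to 11 genes of the list were called, against 11. TXNRD1, the cytosolic thioredoxin reductase, fell from 311.1 ± 3.20 to 202.5 ± 8.44 CPM (mean ± SD, n = 3), and its log2 fold change was -0.62 ± 0.07 (SE) at an edgeR adjusted p of 8.92e-07. TXN, thioredoxin itself, fell from 178.9 ± 11.4 to 128.9 ± 7.87 CPM, with -0.47 ± 0.08 (SE) as its log2 fold change and an edgeR adjusted p of 6.35e-05. SRXN1, which repairs oxidized peroxiredoxins, was the gene that rose, by 0.33 on the log2 scale, with overlapping groups. Of the mitochondrial members, TXN2 and TXNRD2 were not called, at 0.04 and -0.06. The peroxiredoxin genes PRDX3 and PRDX5 fell, at -0.22 and -0.30, and so did the glutaredoxin gene GLRX2, at -0.46.

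Among genes of glucose uptake and of the enzymes that make or use glucose 6-phosphate, the signal read by the Mondo factors, 14 of 19 in the table were tested, of which 3 rose, 3 fell and 8 were not called. SLC2A1, the gene of GLUT1, rose from 167.7 ± 20.2 to 365.3 ± 16.5 CPM (mean ± SD, n = 3), and its log2 fold change was 1.12 ± 0.08 (SE) at an edgeR adjusted p of 1e-08. HK2, an inducible hexokinase, rose by 0.57 on the log2 scale (SE 0.08, edgeR adjusted p of 2.95e-05), whereas HK1, the more abundant hexokinase, was at -0.17 and was not called. SLC2A3, the gene of GLUT3, rose by 0.34. The genes that fell were SLC2A8 at -0.88, SLC37A4, the glucose 6-phosphate translocase of the endoplasmic reticulum, at -0.25, and PGM2 at -0.23. GPI, which converts glucose 6-phosphate to fructose 6-phosphate, was at -0.09 and was not called. Without hyperoside replicate 3, 3 genes of the list were called in place of 6.

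Of the other known target genes of ChREBP and MondoA, with TXNIP and ARRDC4 left out, 18 were tested, of which 5 rose, 8 fell and 5 were not called, with a median log2 fold change of -0.21. KLF10, which encodes a zinc finger repressor, rose from 30.9 ± 3.61 to 70.5 ± 3.12 CPM (mean ± SD, n = 3), and its log2 fold change was 1.19 ± 0.09 (SE) at an edgeR adjusted p of 2.43e-08. HK2, also in this list, RGS16 at 0.68, ACACB at 0.66 and PPARGC1B at 0.34, with overlapping groups, were the others that rose. SCD, the stearoyl-CoA desaturase gene, fell from 645.0 ± 17.5 to 319.2 ± 8.79 CPM, with -1.01 ± 0.07 (SE) as its log2 fold change and an edgeR adjusted p of 2.17e-09. FASN, the fatty acid synthase gene, fell by 1.08 on the log2 scale (SE 0.10, edgeR adjusted p of 8.93e-08). PKLR, the classic ChREBP target of the liver and also a red cell enzyme, was at -0.67, with 88.2 ± 6.95 and 55.5 ± 6.05 CPM. SCD, FASN, ACACA and ACLY are targets of SREBP factors too, so the list is not specific to the Mondo factors. Without control replicate 1, 11 genes of the list were called in place of 13, and without hyperoside replicate 2 also 11.

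Of the Max and Mlx network, 9 of 10 genes were tested, of which 2 rose, 3 fell and 4 were not called. MXD4, whose protein is a partner of MLX as well as of MAX and which was named after its values were seen, fell from 29.1 ± 0.53 to 16.9 ± 0.39 CPM (mean ± SD, n = 3), and its log2 fold change was -0.79 ± 0.10 (SE) at an edgeR adjusted p of 3.33e-06. MYCL at -1.21 and MXD3 at -1.22 were the others that fell, and MGA at 0.29 and MXI1 at 0.24 rose, the latter with overlapping groups and an edgeR adjusted p of 0.0497. The list had 4 to 6 genes called in the alternative fits, against 5. The other MLX partners MXD1 and MNT were at -0.11 and 0.26 and were not called, and neither was MYC, at 0.02.

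Of the NEDD4-family ligases and their adaptors, which act with the alpha-arrestins, 1 of 11 rose, 2 fell and 8 were not called. WWP2 rose from 51.6 ± 4.02 to 75.7 ± 4.14 CPM (mean ± SD, n = 3), and its log2 fold change was 0.55 ± 0.08 (SE) at an edgeR adjusted p of 4.07e-05. HECW2 fell from 3.78 ± 0.77 to 0.848 ± 0.24 CPM, with -2.15 ± 0.30 (SE) as its log2 fold change and an edgeR adjusted p of 1.58e-05, and NEDD4 was at -0.33, with overlapping groups. ITCH, the ligase known to ubiquitinate TXNIP, was at 0.08 with 86.3 ± 9.54 and 91.5 ± 3.58 CPM and was not called.

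Of the other arrestin-fold genes, 5 were tested. ARRB1, which encodes beta-arrestin 1, rose from 41.9 ± 1.86 to 83.2 ± 5.42 CPM (mean ± SD, n = 3), and its log2 fold change was 0.99 ± 0.08 (SE) at an edgeR adjusted p of 4.69e-08. ARRB2, which encodes the closely related beta-arrestin 2, fell from 23.3 ± 1.79 to 17.4 ± 2.61 CPM, with -0.42 ± 0.12 (SE) as its log2 fold change and an edgeR adjusted p of 0.00724. VPS26C rose by 0.31, and the retromer subunit genes VPS26A and VPS26B were not called. The visual arrestin genes SAG and ARR3 had at most 2 counts in any library.

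Of the partners of TXNIP and the subunits of AMPK, the kinase that marks TXNIP for degradation, 10 were tested, of which 2 rose, 3 fell and 5 were not called. DDIT4, whose protein REDD1 forms a complex with TXNIP, fell from 1081 ± 98.6 to 388.7 ± 75.9 CPM (mean ± SD, n = 3), and its log2 fold change was -1.48 ± 0.11 (SE) at an edgeR adjusted p of 9.83e-09. PRKAB1 rose by 0.33 and PRKAG1 by 0.23, while PRKAB2 was at -0.37 and KPNA2, which encodes an importin, at -0.21. Without control replicate 2, 3 genes were called in place of 5, and without hyperoside replicate 3 also 3. Without control replicate 1, 7 were called. NLRP3, the inflammasome sensor bound by TXNIP, had at most 9 counts in any library, so no difference was detectable at this depth.

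**Figure D4:**
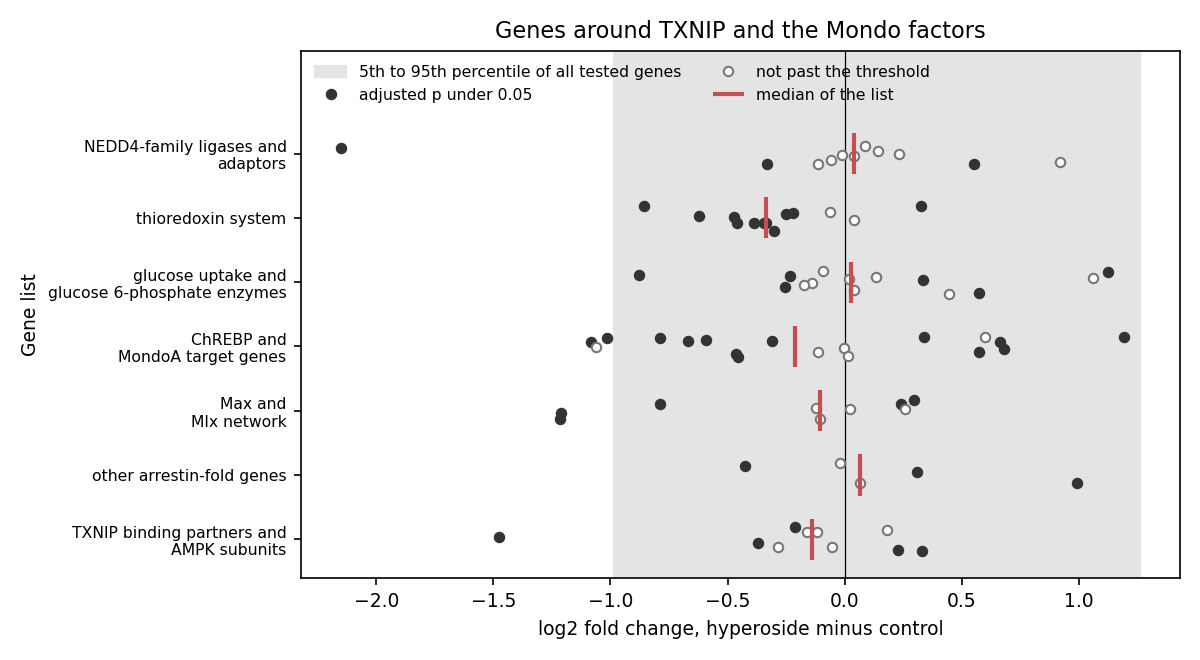
Log2 fold change (hyperoside minus control) of the tested genes of each list, filled where the adjusted p was under 0.05, with a red line at the list's median and a band for the middle of all tested genes. Most filled points of the thioredoxin system lie left of 0, while those of the other lists lie on both sides.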

How the data were processed

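The authors sequenced K562 RNA on an Illumina instrument, and OE Biotech analysed the reads. The submitters' processing notes name fastp, HISAT2, HTSeq and hg38, while versions, annotation and use of strand were not given in the sources used here. The authors deposited raw counts per gene and FPKM values, which are those counts divided by gene length and library total. A gene's FPKM does not correct for composition.

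Counts were fitted in R 4.3.3 with edgeR 4.0.16 (filterByExpr with a minimum count of 10, TMM factors of 0.957 to 1.03, quasi-likelihood test on condition) over 15095 genes, with Benjamini-Hochberg adjustment over all of them. DEGs also needed a fold change above 2. The standard error is the log2 fold change divided by the square root of F. The fit was run on simulated data, with far fewer changed genes than here, to see that known fold changes were recovered. That run is no check of the calls. The labels do not name separate cultures, so p-values measure only the spread between these libraries. Alternatives used DESeq2 1.42.0 and limma 3.58.1. The members and lists were chosen with earlier results of these data known. Named genes were all 8 members, the 2 with the smallest adjusted p per list and direction, the genes nearest in pattern and antisense genes of the members; the other genes named, all genes with the spaced motif pair among them, were chosen after their values were seen. Of 8 members, 8 matched RefSeq promoter windows (GRCh38.p14). Exon overlaps came from GENCODE 29. The markers of fat and liver cells summed to at most 0.448 CPM in any library.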

Additional observations from a re-analysis of the deposited data

How the results depend on the processing

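Each fit was repeated with DESeq2's size factors, with DESeq2 and limma-voom, without a filter on low counts, with limma-trend on log2(FPKM + 1) and log2(FPKM + 0.1), with a replicate block and with each library left out. All of these fits reuse the libraries on which TXNIP was selected, so they describe dependence on processing and are no independent check of the members. TXNIP, ARRDC3 and MLXIPL kept their direction and their call in all 13 of these alternatives, with log2 fold changes of 1.95 to 2.05, 0.92 to 1.08 and -1.14 to -0.52. ARRDC4 kept its direction in 13 and its call in 8, and MLX was called in 1. ARRDC1 and ARRDC2 were called in none of the 13, nor was MLXIP. Without 1 library, the calls in the glucose list numbered 3 to 7, against 6, and those in the list of TXNIP partners and AMPK subunits 3 to 7, against 5. The cause was not tested. With the replicate block, 6129 genes were called, against 6841 without it. No pairing by replicate number was visible, as the correlations of the deviations of same-numbered libraries were -0.08, -0.03 and -0.03. With 3 libraries a group this check cannot exclude a pairing. No member's call changed under the block. Precision is limited by 3 libraries a group and, for MLXIPL, by 119 to 288 counts.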
